A study of Homo sapiens with 4 samples.

Results

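The 10 genes described here encode glutathione peroxidases and their partners in peroxide defence: GPX1, GPX2, GPX3, GPX4, GPX7, GPX8, the glutathione transferase GSTA3, catalase (CAT) and the superoxide dismutases SOD1 and SOD2. They were chosen with earlier results of the same data known, out of 19775 genes with a probe set of their own on the array. All 10 had a probe set that the annotation assigns to that gene alone, and all 10 were among the 14926 genes bright enough to be compared. The arrays measured RNA of 4 established lines of human germ cell tumours, with 1 Affymetrix U133 Plus array per line: TCam-2 (labelled seminoma), NT2D1 (teratoma), GCT27 (embryonal carcinoma, there called embryocarcinoma) and GCT44 (yolk sac tumour). The labels give a testicular origin for all 4 lines, NT2D1 through a lung metastasis, and name no genetic change or drug treatment. TCam-2 was kept in RPMI-1640 and the other 3 lines in Dulbecco's medium, each with serum and antibiotics, so wherever TCam-2 is compared, the effects of medium and of subtype cannot be told apart. NT2D1 is widely treated as an embryonal carcinoma line with pluripotent cells, and its values belong to that line and not to differentiated teratoma tissue.

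Peroxide defence works in steps. Superoxide dismutases turn superoxide into hydrogen peroxide, which catalase breaks down in peroxisomes and which peroxiredoxins and glutathione peroxidases reduce in other compartments at the cost of thiols. GPX1 to GPX4 in humans are selenoproteins, which carry selenocysteine at the active site, whereas GPX7 and GPX8 use cysteine and reside in the endoplasmic reticulum. GPX1 is the widely expressed cytosolic form, and GPX2 is a related cytosolic form best known from the epithelium of the gut.

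No line had a replicate, so no value below has an error and no test was made. The number of arrays limits the precision. Intensities are in linear array units, and levels are compared only within a probe set, between lines. Levels under 76.4 units, the median of all values, were set to that floor before a fold was taken, and a fold against a floored value is written as "at least". A call for a line needed a distance (the margin) of at least 4-fold to whichever remaining line was closest. It is a rule of size with no error rate. Since the genes were chosen from these same 4 arrays, their values are a description and support nothing further.

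Markers of the labelled subtypes were read for 3 of the lines. SOX17, TFAP2C, PRDM1, KIT and PDPN lay above the floor in TCam-2, whereas NANOS3 was below it in all 4 lines. KIT was no higher in TCam-2 (1144 units) than in the others (1160 to 1771 units). Only SOX17 was above the floor in TCam-2 alone. TFAP2C had 20557 units in TCam-2 against 1901, 2442 and 72.3 in NT2D1, GCT27 and GCT44. PRDM1 had 2481 against 177, 93.1 and 1550, and PDPN had 2831 against 1790, 2294 and 9.58. Of the embryonal carcinoma markers, SOX2 had 20575 units in NT2D1 and 18309 in GCT27, against 391 in TCam-2 and 6.41 in GCT44. DNMT3B had 11360 and 23760 units, against 2841 and 2377 in that order of lines, and GDF3 had 5915 and 16726, against 334 and 543. In TCam-2 all of these lay above the floor, and in GCT44 all but SOX2. All 6 yolk sac markers lay above the floor in GCT44, APOA2 at 30689 units. Some lay above it elsewhere too. These were GATA6 (780 units), FOXA2 (259) and APOA2 (89.2) in TCam-2, AFP (126) and APOA1 (118) in NT2D1, and AFP (85.4) in GCT27. No teratoma markers were listed, so the label of NT2D1 was not checked. Markers of other cells were present too. Of 4 fibroblast markers, COL1A1, COL1A2 and LUM lay above the floor in TCam-2 and DCN below it, with a summed level of 13430 units in TCam-2 against 5470 to 7357 in the other lines. LUM had 3354 units in TCam-2 against 241, 47.6 and 63.5, and COL1A2 had 9210 against 61.1, 1345 and 2600, in NT2D1, GCT27 and GCT44. COL1A1 went the other way, with 792 units in TCam-2 against 6093, 3982 and 4614 in that order of lines. DCN lay near the floor throughout, with 75.0 units against 69.3, 95.6 and 78.7. The part of these fibroblast markers in the TCam-2 differences below was not tested. Of the endothelial markers, PECAM1 lay above the floor in all 4 lines, with 130 units in TCam-2 against 131, 161 and 137. CDH5 lay above it in TCam-2 alone, at 114 units, and VWF below it in all 4 lines. Their sums were 273.5 units in TCam-2 and 162.4 to 216.5 in the others. Of the blood markers, PTPRC lay below the floor in all 4 lines and CD3E above it in GCT44 alone, at 88.4 units. All 3 hepatocyte markers lay above the floor in GCT44 and below it in the other lines. On the GCT44 array the signal ratio between the 3' and 5' ends of ACTB was 4.21, against 2.49 to 2.97 on the other 3, while for GAPDH it was 1.04 against 0.898 to 1.09.

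The genes that set the lines furthest apart were GPX1, GPX2, GSTA3 and CAT. Their promoters are shown here because they differ in the number of CpG dinucleotides, the sites of DNA methylation, which the study set out to relate to expression. The sequences come from RefSeq (GRCh38.p14), run from 250 bases before to 50 bases after the start of the gene, are written 5′ to 3′ along the gene, and have every CpG in capitals. GPX2 lies at chr14:64942696-64942995 on the minus strand, GPX1 at chr3:49358304-49358603 on the minus strand, GSTA3 at chr6:52909649-52909948 on the minus strand and CAT at chr11:34438684-34438983 on the plus strand. The array files name no genome build.
GPX2: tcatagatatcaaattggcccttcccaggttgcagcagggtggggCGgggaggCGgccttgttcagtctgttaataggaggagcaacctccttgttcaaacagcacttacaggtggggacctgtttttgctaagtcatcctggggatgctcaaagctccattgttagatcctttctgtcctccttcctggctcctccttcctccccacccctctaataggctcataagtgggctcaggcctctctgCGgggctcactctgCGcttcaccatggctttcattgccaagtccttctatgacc
GPX1: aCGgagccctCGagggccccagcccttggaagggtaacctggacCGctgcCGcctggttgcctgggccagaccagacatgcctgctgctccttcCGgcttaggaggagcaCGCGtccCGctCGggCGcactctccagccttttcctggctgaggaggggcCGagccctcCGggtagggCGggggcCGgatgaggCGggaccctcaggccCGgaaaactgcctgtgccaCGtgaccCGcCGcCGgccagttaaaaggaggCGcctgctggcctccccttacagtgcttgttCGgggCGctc
GSTA3: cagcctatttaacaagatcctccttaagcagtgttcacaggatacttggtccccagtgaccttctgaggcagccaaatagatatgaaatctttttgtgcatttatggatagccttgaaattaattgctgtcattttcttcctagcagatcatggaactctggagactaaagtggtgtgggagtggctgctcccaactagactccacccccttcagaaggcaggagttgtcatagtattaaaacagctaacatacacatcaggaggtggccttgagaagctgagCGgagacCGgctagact
CAT: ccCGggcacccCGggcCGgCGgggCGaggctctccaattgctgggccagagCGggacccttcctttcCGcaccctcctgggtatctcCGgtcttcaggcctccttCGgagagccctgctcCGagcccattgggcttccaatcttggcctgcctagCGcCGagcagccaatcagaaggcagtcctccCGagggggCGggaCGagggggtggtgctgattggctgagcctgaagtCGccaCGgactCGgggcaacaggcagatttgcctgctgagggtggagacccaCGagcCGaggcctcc

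GPX1 had 23 CpGs in this window and CAT 20, and 66.1% and 60.5% of 35116 promoters of the same length held that many or fewer. GPX2 held 4 CpGs and GSTA3 2, with 29.6% and 18.2% of promoters at or below those counts. The antioxidant response element, the site read by the oxidative stress factor NRF2, has the core TGACNNNGC. Searched on both strands, that core matched 1 of 14 promoters of the 9 genes found in the table, the GPX2 promoter, where TGACTTAGC lies on the strand opposite to the gene (GCTAAGTCA in the sequence as printed), from 122 to 114 bases before its start. Over all promoters 13.3% held a match. The palindromic AP-2 motif GCCNNNGGC matched 6 of the 14, in GPX1, GPX4 and SOD2, against 23.2% of all promoters. The GC box GGGCGG, searched on both strands, matched 12 of the 14, those of GPX8 and GSTA3 being without one, against 45% of all promoters. Of the 3 GPX4 windows, 2 overlap and hold the same AP-2 match and the same GC box, so these sites are counted more than once. A match is a run of letters and no measured binding, and the methylation of these promoters was not analysed here.

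The exchange between GPX2 and GPX1 gave the widest differences among the glutathione peroxidases. GPX2 had 4551 units in TCam-2, while NT2D1 had 82.9, GCT27 140 and GCT44 18.6. It stood high in TCam-2 alone, was close to the floor in NT2D1 and GCT27 and was below it in GCT44. GPX1 had 126 units in TCam-2, with NT2D1 at 16612, GCT27 at 5145 and GCT44 at 4056. The order was turned round: GPX1 was near the floor in TCam-2 and bright in each of the other 3 lines, most of all in NT2D1. In RNA from whole cultures, fewer cells with a transcript and less of it per cell cannot be told apart.

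**Figure D1:**
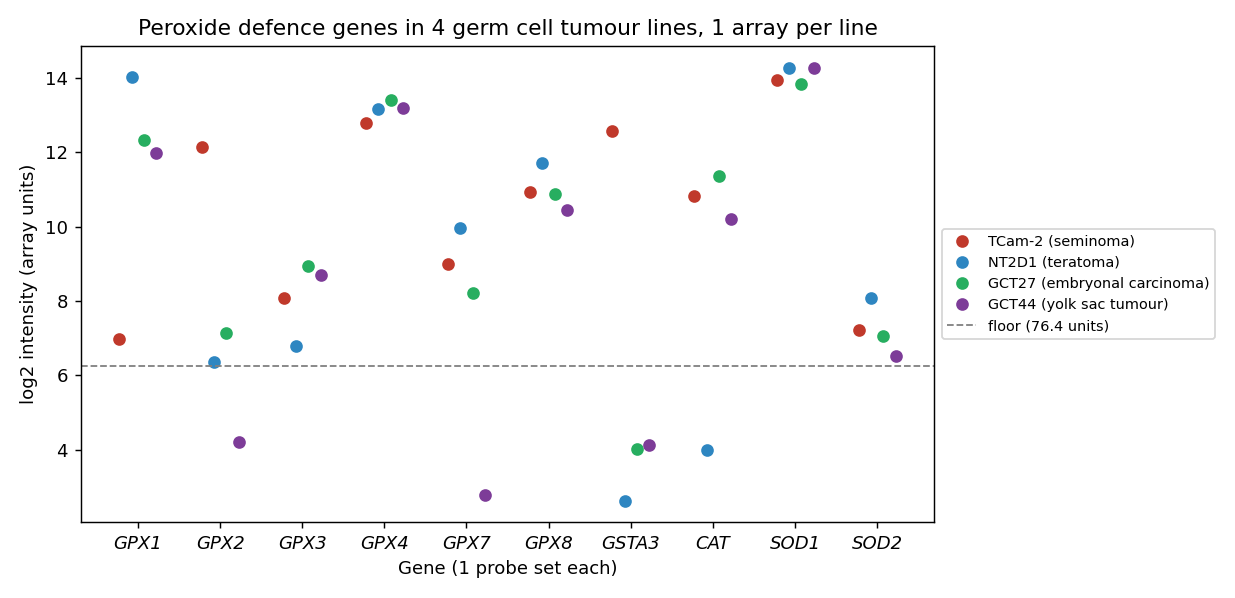
Log2 intensity (array units) of the probe set that stands for each of the 10 genes, with 1 point for each cell line and array and the floor of 76.4 units as a dashed line. GPX1 is lowest in TCam-2 at 126 units while GPX2 and GSTA3 are highest there at 4551 and 6053 units, CAT drops under the floor in NT2D1 and GPX7 in GCT44, and GPX4 and SOD1 lie close together in all 4 lines.

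Between TCam-2 and each other line, the differences of both genes had opposite signs. Against NT2D1, GPX2 was 54.9-fold higher in TCam-2 and GPX1 was 132-fold lower. Against GCT27 the values were 32.5-fold higher for GPX2 and 40.8-fold lower for GPX1. Against GCT44, where GPX2 was under the floor, GPX2 was at least 59.5-fold higher and GPX1 was 32.2-fold lower. On the log2 scale the GPX2 difference exceeded the GPX1 difference by 12.82 against NT2D1, 10.37 against GCT27 and at least 10.90 against GCT44. The margins beyond the nearest line were nearly mirror images, 5.02 for GPX2 and -5.01 for GPX1, with GCT27 the nearest line for GPX2 and GCT44 for GPX1.

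The exchange rests on few probe sets. GPX1 had a single probe set, whose suffix marks it as one that can match several transcripts, so nothing else on the array checks its low value in TCam-2. GPX2 had a further, dimmer probe set with 156 units in TCam-2, while NT2D1 had 42.6, GCT27 24.0 and GCT44 56.8. It was also highest in TCam-2, and was above the floor there alone, by at least 2.04-fold. The brighter probe set was above the floor in NT2D1 (82.9 units) and GCT27 (140 units) as well. With the median over both probe sets the GPX2 margin was 3.46. Of the gut epithelium markers CDX2, VIL1, LGALS4 and MUC2 only MUC2 lay above the floor in TCam-2, at 107 units, and the summed level of the 4 was 136.5 units in TCam-2 against 58.6 to 1760 in the other lines.

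GSTA3 was the third gene called in TCam-2. It encodes an alpha-class glutathione transferase that in humans isomerises steroid hormone precursors, and alpha-class enzymes can also reduce lipid peroxides. Its intensity was 6053 units in TCam-2, with NT2D1 at 6.22, GCT27 at 16.2 and GCT44 at 17.6. All 3 other lines were under the floor, so GSTA3 was at least 79.2-fold higher in TCam-2, on its only probe set. Of the 4 steroid cell markers, STAR, HSD3B2 and NR5A1 lay under the floor in TCam-2, and CYP11A1 had 225 units there, with NT2D1 at 71.4, GCT27 at 181 and GCT44 at 13.7. Their summed level was 275 units in TCam-2, against 367, 384 and 79.05 in the other lines.

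**Figure D2:**
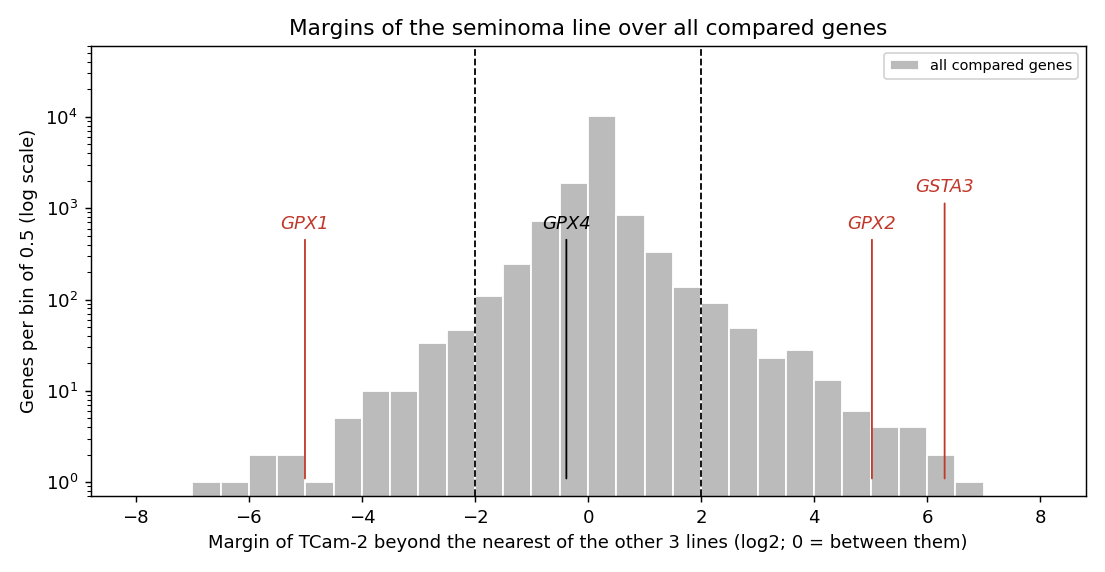
Number of genes (log scale) by the margin of TCam-2 beyond the nearest of the other 3 lines (log2, bins of 0.5; 0 where TCam-2 lies between other lines), for 14926 genes, with dashed lines at the 4-fold rule. GPX2 at 5.02 and GSTA3 at 6.31 lie in the upper tail and GPX1 at -5.01 in the lower tail, GPX4 at -0.38 lies inside the rule, and the 6 unmarked members have a margin of 0.

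Counted by the rule of size, 2 of the 10 genes were higher in TCam-2, where 1.49% of all compared genes were higher, and 1 was lower, where 0.744% were lower. In NT2D1 none was higher, against 0.523% of all genes, and CAT alone was lower, against 0.241%. In GCT27 no member was called, where 0.603% of genes were higher and 0.322% lower. In GCT44 no member was called either, where 1.7% were higher and 1.69% lower. The genes were picked with these same values in view, so the counts say nothing on how often such genes differ. The median span between a gene's highest and lowest line was 2.93 on the log2 scale over the 10 members and 1.09 over all compared genes.

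CAT, the peroxisomal enzyme that splits hydrogen peroxide, set NT2D1 apart. It had 15.9 units in NT2D1, against 1795 in TCam-2, 2621 in GCT27 and 1182 in GCT44. It was below the floor in NT2D1 and well above it in the other 3 lines, which makes it at least 15.5-fold lower in NT2D1. A further probe set gave the same order, with 75.2 units in NT2D1 against 298 in TCam-2, 536 in GCT27 and 211 in GCT44, at least 2.76-fold lower. The remaining probe set was below the floor in all 4 lines. With the median over the 3 probe sets the margin was -1.46 and the call was lost.

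GPX7 fell just short of the rule in GCT44. This protein of the endoplasmic reticulum uses peroxide to drive the oxidation of protein disulphide isomerase. It had 6.95 units in GCT44, against 510 in TCam-2, 1004 in NT2D1 and 299 in GCT27. GCT44 was the only line below the floor, and its margin of -1.97 on the floored scale lay just outside the threshold of -2, while the nearest margin inside it was the -3.95 of CAT in NT2D1. The value depends on the floor, with a margin of -0.25 when the floor was at the 70th percentile and -5.43 with no floor. It was -2.23 when arrays were scaled to their spiked-in controls, -1.92 when they were centred on their medians, -2.74 without GCT27 and -2.81 against the mean of the other lines. GPX7 has 1 probe set, and its low value fell on the array with the highest ACTB 3' to 5' ratio, whose part in the result was not tested.

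GPX8, the related membrane protein of the endoplasmic reticulum, varied less. Its intensity was 1943 units in TCam-2, while NT2D1 had 3365, GCT27 1882 and GCT44 1402, a span of 2.4-fold. Its other probe set ranked the lines alike, with 601, 1615, 537 and 391 units in the same order of lines. NT2D1 was highest and GCT44 lowest for both GPX7 and GPX8.

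GPX3, the secreted form found in plasma, was dim. It had 269 units in TCam-2, with NT2D1 at 112, GCT27 at 494 and GCT44 at 414. Its further probe set had 212, 91.6, 418 and 342 units in that order of lines. NT2D1 was lowest on both probe sets, by 2.41-fold and 2.32-fold below the next line, which is TCam-2 and inside the rule.

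GPX4, which reduces lipid hydroperoxides in membranes and restrains ferroptosis, was nearly level. It had 7024 units in TCam-2, while NT2D1 had 9159, GCT27 10906 and GCT44 9414, a span of 1.55-fold with TCam-2 lowest. SOD1, the cytosolic copper and zinc enzyme, had 15820 units in TCam-2, with NT2D1 at 19808, GCT27 at 14553 and GCT44 at 19578, a span of 1.36-fold. These spans carry no error, so the order of the lines for GPX4 and SOD1 cannot be set against a spread.

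SOD2, the manganese enzyme of mitochondria, had 149 units in TCam-2, while NT2D1 had 268, GCT27 132 and GCT44 92.0. These values come from the only probe set listed for SOD2 alone. Another 4 probe sets are listed for SOD2 together with SOD2-OT1 and were not used, so the level of SOD2 is weakly covered here.

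**Figure D3:**
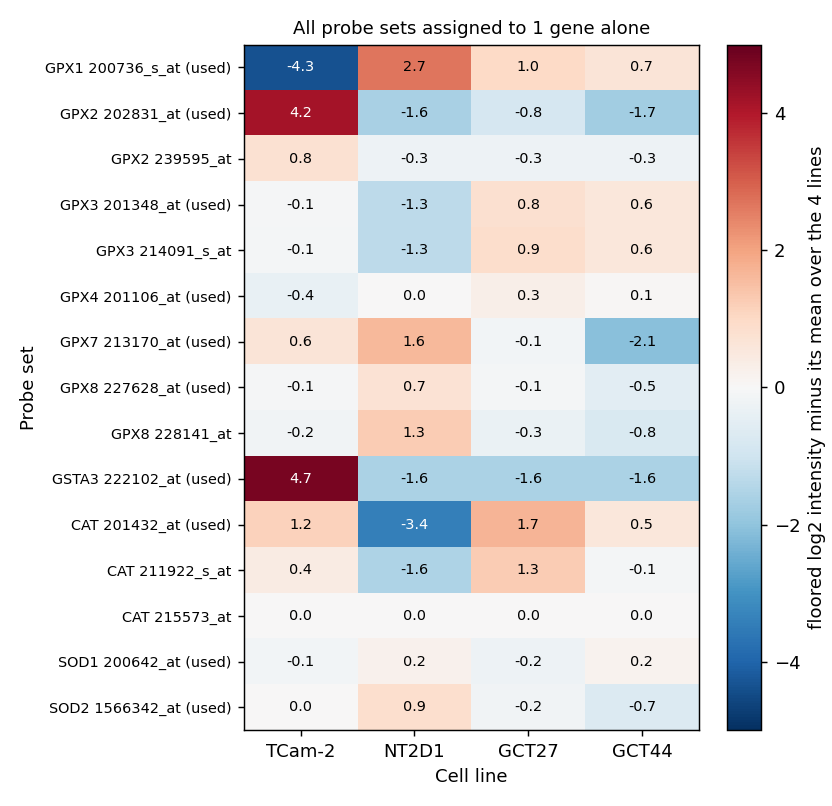
Each of the 15 probe sets assigned to 1 member alone (rows) in the 4 lines (columns), as floored log2 intensity minus the mean of that probe set over the lines, printed in each cell and coloured from blue (lower) to red (higher). The GPX1 and GPX2 rows show opposite colours in TCam-2, and where a gene has further probe sets above the floor (GPX2, GPX3, GPX8 and CAT) these point the same way as the one used, at a smaller size for GPX2 and CAT.

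Between pairs of lines, 4 of the 10 members differed by 4-fold or more for TCam-2 against NT2D1. GPX2, GSTA3 and CAT were higher and GPX1 lower in TCam-2, beside 4.21% and 4.05% of all compared genes (8.26% either way). Against GCT27, GPX2 and GSTA3 were higher and GPX1 lower in TCam-2, beside 3.58% and 3.79% (7.37%). Against GCT44, GPX2, GSTA3 and GPX7 were higher and GPX1 lower in TCam-2, beside 5.7% and 4.38% (10.1%). Among the non-seminoma lines, no member was higher and GPX3 and CAT were lower in NT2D1 than in GCT27, beside 2.09% and 2.58% of genes (4.67%). GPX1 and GPX7 were higher and CAT lower in NT2D1 than in GCT44, beside 4.76% and 3.77% (8.53%). No member differed so much between GCT27 and GCT44, where 5.3% of genes were higher in GCT27 and 4.15% lower (9.45%). These pairs share arrays and are not independent of each other.

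By pattern over the 4 lines, the genes nearest to GPX1 among all compared genes were SALL1 (Euclidean distance 1.13 on the centred log2 scale), BEX1 (1.40), NAP1L3 (1.49), DUXAP10 (1.65) and ZIC2 (1.66). SALL1 had 80.6 units in TCam-2, with NT2D1 at 6896, GCT27 at 2580 and GCT44 at 4779. The genes nearest to GPX2 were IGF1 (0.62), RASD1 (0.63), SOX17 (0.67), PRLR (0.68) and CNR1 (0.70). IGF1 had 4184 units in TCam-2, while NT2D1 had 33.2, GCT27 81.0 and GCT44 21.3. With 4 lines such likeness says only that these genes share a line in which they are high or low.

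The genes lying next to the members on their chromosomes were also read, 3 compared genes on each side, a choice made after the values were seen. All 6 neighbours of GPX1 stayed within the rule in every line. RHOA, the next compared gene, had 13500 units in TCam-2, with NT2D1 at 17371, GCT27 at 15598 and GCT44 at 20551, and USP4 on the other side had 2182 against 1653, 2371 and 3661. Beside GPX2, the next compared gene RAB15, which encodes a GTPase of endosome traffic, was higher in TCam-2, with 14361 units against 1451 for NT2D1, 1003 for GCT27 and 803 for GCT44. Its other probe set had 14387 units in TCam-2 against 864, 545 and 275. The other 5 neighbours of GPX2 were not called. Of them, CHURC1, SPTB, FNTB and PLEKHG3 were also highest in TCam-2, with margins of 1.06, 0.92, 0.60 and 0.53, and MAX was not. SPTB and FNTB were dim, with 168 and 136 units in TCam-2 and the other lines near or under the floor. Near GSTA3, the trophoblast factor GCM1 was called higher in TCam-2, with 410 units against 9.16, 45.9 and 9.21, all 3 under the floor. GSTA4, the next compared gene and also a transferase, had 7905 units in TCam-2 against 2347, 1397 and 988, short of the rule. CILK1 and LOC730101 were likewise highest in TCam-2, with margins of 1.35 and 1.14, whereas TMEM14A and GSTA1 were not. None of the 6 neighbours of CAT was called in any line.

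In all, 11 lists of related genes were set between the lines in the same way, with 125 different genes, of which 110 were compared, 8 were too dim and 7 lacked a probe set of their own. In TCam-2, 2 of the 110 were higher (1.82%) and 2 lower (1.82%), beside 1.49% and 0.744% of all compared genes. Set against the mean of NT2D1, GCT27 and GCT44, the 110 had a median difference of -0.09 on the log2 scale, beside -0.06 over all genes. In NT2D1, 1 was higher (0.909%) and 2 were lower (1.82%), beside 0.523% and 0.241% of all genes. In GCT27 none was called, beside 0.603% and 0.322%. In GCT44, 5 were higher (4.55%) and 1 lower (0.909%), beside 1.7% and 1.69%. These lists were drawn up with results of these arrays known. Each single list is short, so at these shares a list without a call says little.

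**Figure D4:**
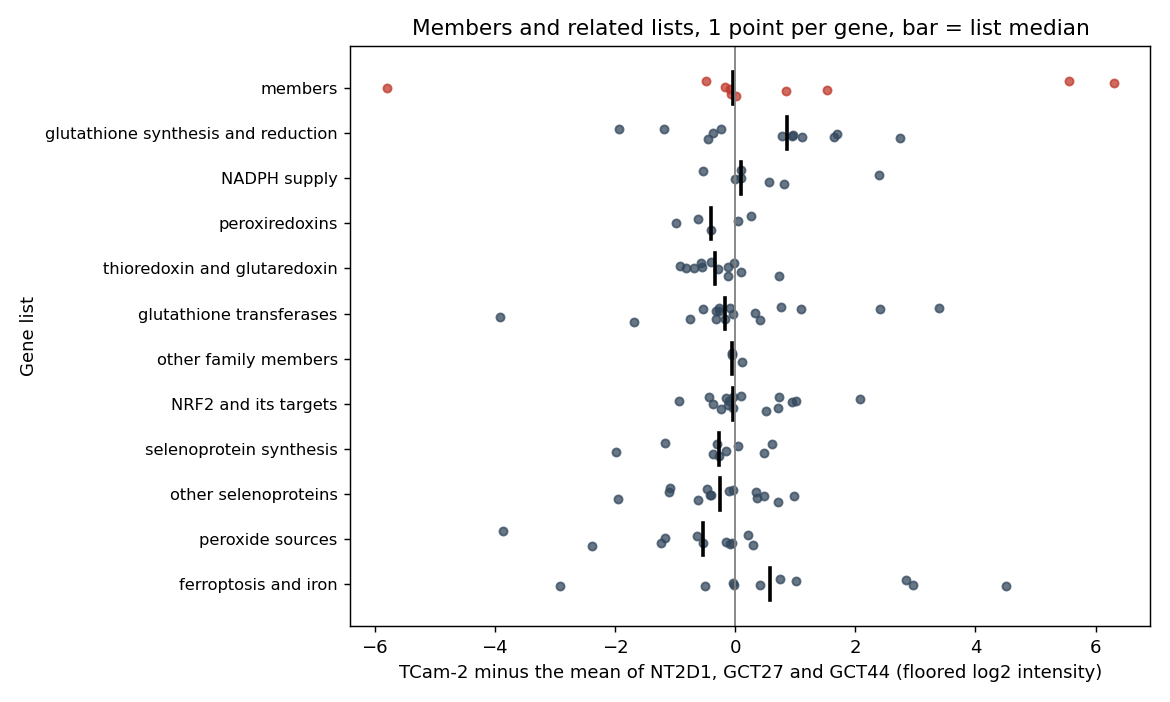
Difference between TCam-2 and the mean of NT2D1, GCT27 and GCT44 (floored log2 intensity) for the 10 members in red and for the compared genes of each related list in grey, 1 point per gene, with the list median as a black bar. The members hold the most distant points at both ends, with GPX1 at -5.80, GPX2 at 5.57 and GSTA3 at 6.31, and the medians of the lists lie between -0.54 and 0.86.

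The called genes of these lists in TCam-2 were MGST1, CYBA, GCH1 and ALOX5. MGST1, a membrane-bound glutathione transferase that also reduces lipid peroxides, had 1085 units in TCam-2, while NT2D1 had 23176, GCT27 21365 and GCT44 8766, 8.08-fold lower. Of its 4 other probe sets 2 were bright enough to show such a fall, and both did. CYBA, a membrane subunit of the NADPH oxidases, had 91.2 units in TCam-2 against 1466, 1084 and 1462, 11.9-fold lower, but its margin was -0.15 with the median over its probe sets. GCH1, the enzyme that starts tetrahydrobiopterin synthesis, had 23866 units in TCam-2 against 754, 1266 and 1196, 18.9-fold higher on its only probe set. As for GPX1, the suffix of that probe set marks it as one that can match several transcripts. ALOX5, a lipoxygenase that forms lipid peroxides, had 741 units in TCam-2 against 57.5, 148 and 23.5, 5.01-fold higher. None of its 3 other probe sets was bright enough to show such a rise, so the call rests on 1 probe set. GCH1 and ALOX5 belong to the list of 10 compared genes of ferroptosis and iron, which had a median of 0.58 in TCam-2 and no call in the other lines. The list was mixed. ACSL4 was lowest in TCam-2, with 254 units against 2600, 3762 and 723, inside the rule. SLC40A1 had 3524 units in TCam-2 against 183, 69.7 and 8337, between the other lines.

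No gene of the glutathione list was called in TCam-2. None of its 12 genes met the rule there, although their median difference was 0.86. Of all compared genes 1.49% were higher and 0.744% lower in TCam-2, so no call among so few genes says little. Besides synthesis and reduction, the list holds genes of glutathione breakdown and turnover. Among the latter, GGCT (2.745), OPLAH (1.651), CHAC1 (1.105) and GGT7 (0.965) lay above the mean of the other lines, and GGT1 (-0.455) and CHAC2 (-1.930) below it. Of the rest, SLC3A2 (1.694), SLC7A11 (0.944) and GSS (0.775) lay above it, and GCLC (-0.235), GCLM (-0.366) and GSR (-1.192) below. Glutathione reductase (GSR), which regenerates glutathione for the peroxidases, had 1206 units in TCam-2 against 3703, 2925 and 1928 in NT2D1, GCT27 and GCT44. SLC3A2, a chain of the cystine transporter, had 1551 units in TCam-2 against 671, 554 and 296. SLC7A11, its partner chain, had 1700 units in TCam-2 against 940, 2143 and 342. In GCT44, GGCT, which breaks down gamma-glutamyl dipeptides, had 59.4 units against 11025 in TCam-2, 10837 in NT2D1 and 5370 in GCT27, at least 70.3-fold lower on its only probe set.

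None of the 5 peroxiredoxins or of the 12 thioredoxin and glutaredoxin genes was called in any line. The share of all compared genes called was 0.241% to 1.7% per line and direction. In TCam-2 these lists had medians of -0.40 and -0.34. TXNRD2, the mitochondrial thioredoxin reductase, had the widest margin, 1.75 in NT2D1, with 621 units there against 153 in TCam-2, 170 in GCT27 and 185 in GCT44. PRDX2 was lowest in TCam-2 with 6895 units against 13788, 14466 and 12635. PRDX1, the most widely expressed cytosolic peroxiredoxin, had 36585 units in TCam-2 against 32661, 30455 and 28823. Of the 7 genes of NADPH supply, with a median of 0.10 in TCam-2, malic enzyme ME1 was called in NT2D1, with 45.8 units against 2049 in TCam-2, 1440 in GCT27 and 546 in GCT44, at least 7.15-fold lower.

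NRF2 and its targets, with 16 genes compared, held no call in any line and had a median of -0.04 in TCam-2. With 0.241% to 1.7% of all compared genes called per line and direction, no call among 16 genes says little. NQO1, a quinone reductase that is a standard NRF2 target, came nearest, with 7056 units in TCam-2 against 1928, 1512 and 1623, a margin of 1.87. The aldo-keto reductase AKR1C1 had 189 units in TCam-2 against 68.0, 435 and 501. The gene for NRF2 itself, NFE2L2, had 6028 units in TCam-2 against 5147, 2181 and 4422. Its repressor KEAP1 had 523 units in TCam-2 against 1350, 857 and 877. GCLM, which sets the rate of glutathione synthesis with GCLC, had 1925 units in TCam-2 against 2355, 2550 and 2542.

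Selenoprotein genes other than the peroxidases were examined because GPX1 and GPX2 both need selenocysteine. In TCam-2, none of 9 genes of selenoprotein synthesis and none of 14 other selenoprotein genes was called, with medians of -0.27 and -0.25. Of all compared genes 1.49% were higher and 0.744% lower there. SEPHS1, a relative of the selenophosphate synthetase, had the widest margin of the synthesis list, with 19817 units in GCT27 against 3761 in TCam-2, 7425 in NT2D1 and 4171 in GCT44. SCLY, which recovers selenium from selenocysteine, was lowest in TCam-2, with 120 units against 810, 448 and 300. SELENOW had 2987 units in TCam-2 against 2688, 2436 and 1525, the highest of the 4 lines. SELENOH had 9244 units in TCam-2 against 18211, 11158 and 4234, between the other lines. In GCT44, the plasma selenoprotein SELENOP was 4.16-fold higher with 15086 units, against 1131 in TCam-2, 3625 in NT2D1 and 1511 in GCT27. The thyroid hormone deiodinase DIO3 was 6.75-fold higher there with 819 units, against 121, 76.1 and 11.2.

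Of 11 peroxide-producing genes compared, with a median of -0.54 in TCam-2, besides CYBA in TCam-2, the oxidase NOX4 was called in NT2D1 and the monoamine oxidases MAOA and MAOB in GCT44. NOX4, which releases hydrogen peroxide, had 855 units in NT2D1, against 26.5 in TCam-2, 77.0 in GCT27 and 37.7 in GCT44, 11.1-fold higher. NT2D1 had the highest NOX4 and the lowest CAT of the 4 lines. MAOA had 3895 units in GCT44, against 91.8, 58.5 and 363 in TCam-2, NT2D1 and GCT27, 10.7-fold higher, and both of its other probe sets were also past 4-fold. MAOB had 601 units in GCT44, against 20.9, 126 and 65.6, 4.76-fold higher.

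The remaining glutathione transferases, 17 of which were compared, had a median of -0.16 in TCam-2. Besides MGST1, GSTZ1 was 4.59-fold lower in NT2D1, with 104 units against 542 in TCam-2, 478 in GCT27 and 657 in GCT44. MGST2 was 6.4-fold higher in GCT44, with 2730 units against 222, 427 and 314. GSTP1, the abundant pi-class enzyme, had 30382 units in TCam-2 against 15572, 24802 and 7304. Further members of the peroxidase and dismutase families, 3 of them compared with a median of -0.06 in TCam-2, held no call. GPX5 was above the floor in GCT44 alone, at 86.0 units. SOD3 had 106 units in TCam-2 against 98.5, 179 and 58.8.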

How the data were processed

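Total RNA was prepared with a column kit and labelled with biotin, per the labels' protocols. The authors deposited linear intensity values for 54675 probe sets on 4 arrays. With the outer 2% at both ends removed, every array averaged 500.1. RMA is named in the submitters' processing notes, with no version. Its output is normally log2, which these values are not. The arrays also differed in median (73.6 to 79.3 units) and in maximum (41955 to 55282 units). The values were therefore treated as linear intensities scaled to an equal trimmed mean and not as RMA output, and log2 was taken here. The array annotation lists 41097 probe sets with 1 gene, 1801 with several and 11777 not at all, and symbols were updated through gene IDs. Each gene was represented by the probe set with the highest mean log2 value and was compared when its highest value reached the floor. Python 3.11.15 with numpy 2.4.6 and pandas 2.3.3 was used, and the code was tested on simulated data with planted differences, which gives the rule no error rate. Named were all members, the called genes of each list or, with none called, the gene of widest margin, and the 5 genes nearest in pattern to GPX1 and GPX2, with some further list genes picked for their known role after values were seen. The members and lists were chosen with earlier results of these data known. The alternatives cover probe set choice, filter, floor, scaling, threshold and lines used.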

Additional observations from a re-analysis of the deposited data

How the results depend on the processing

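The GPX2 margin in TCam-2 stayed past the rule under all 15 alternatives, between 3.46 and 5.78, and the GPX1 margin under the 14 that gave one, between -5.80 and -4.01. Some of these settings could not move the margins, so their number says little. Changing the filter or the threshold, or taking the floor away, left them at 5.02 and -5.01. Leaving out a line that was not the nearest could not move them either. Leaving out each non-seminoma line gave 5.02 to 5.78 for GPX2 and -5.35 to -5.01 for GPX1. Without probe sets that can match several transcripts (suffixes _s_at and _x_at), GPX1 has no probe set, and 0 members were lower in TCam-2. The number of members called in the other lines, 1 in the report, was 0 with the median over probe sets, 3 with no floor, 2 when scaled to the spiked-in controls, 4 at a threshold of 1 and 10 against the mean of the other lines. It was 0 to 3 when a line was left out, 0 without NT2D1 and 3 without GCT27. Differences of 4-fold between pairs of lines numbered 16 over the members, 25 at a threshold of 1 and 7 to 11 when a line was left out, which leaves fewer pairs. They have no counterpart against the mean of the other lines. Of the related genes, 4 were called in TCam-2, against 2 with the median over probe sets, 0 without the _s_at and _x_at probe sets, 11 at a threshold of 1, 12 against the mean of the other lines and 5 to 6 when a line was left out. Where no construction explains such a move, the cause was not tested. The margin of MGST1 was 0.00 without the _s_at and _x_at probe sets, and that of ALOX5 was 1.55 with the floor at the 70th percentile (252 units). ALOX5 had no margin with the median over probe sets or without the _s_at and _x_at probe sets. GCH1 and CYBA had no margin without those probe sets either, and all 4 calls in TCam-2 rest on a probe set with such a suffix. The spiked-in scaling and a highest mean on linear values were added after the values were seen, as was the use of all alternatives on results other than the 2 margins and the 2 counts of members in TCam-2. Under the spiked-in scaling the median gene lay at 0.30 in GCT27 and -0.29 in GCT44. No paired analysis was possible because each line has 1 array.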
